A study of Mus musculus with 9 samples.

Results

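The collagen genes of the mouse heart were examined in 9 cardiac transcriptomes, leaving out the collagens that are typical of cartilage. A gene was taken as a member when its symbol had the form Col, a number, a and a number, and when it was not Col2a1, Col10a1, a Col9a gene or a Col11a gene. Of 44 such collagen genes in the table, 37 were members and 7 were cartilage collagens, out of 41710 gene names in all. The groups were 3 hearts of Tg-RKIP mice, which carry a transgene for RKIP (Raf kinase inhibitor protein, encoded by Pebp1), 3 hearts labelled Tg-GRK2, whose label names a transgene for the G protein-coupled receptor kinase GRK2, and 3 hearts of non-transgenic FVB controls. All mice were males of the FVB/N strain at an age of 8 months, and RNA was taken from pulverised hearts. Each library came from a separately numbered heart, and p-values measure the spread between these libraries. This spread was small, with a common biological coefficient of variation (the spread of counts beyond sampling) of 1.88% in Tg-RKIP, 3.66% in the hearts labelled Tg-GRK2 and 2.11% in FVB. The median squared difference of libraries of a group was 1.26 to 1.53 times that of sampling noise, so that small differences passed the tests below. How much of the variation between animals this small spread holds was not tested. The standard errors and p-values below rest on it and may be too small for that variation. The RKIP transgene was driven by the alpha-MHC promoter, which is active in cardiomyocytes, and the promoter of the GRK2 transgene was not given in the sources used here.

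The labels were first checked against the transgenes and against markers of heart muscle. Pebp1 reached 16371, 15967 and 16257 TPM (a level per transcript length, scaled to the same total in every library) in the Tg-RKIP hearts, compared with 324, 329.8 and 321 TPM in the FVB hearts. The ratio of the means was 49.9 in TPM, while the test of counts gave a fold of 28.1, or 4.81 (SE 0.019) on the log2 scale. Grk2 was at 26.4, 24.9 and 30.5 TPM in the hearts labelled Tg-GRK2 and at 27.9, 25.9 and 27.4 TPM in FVB, with a log2 fold change of 0.054 (SE 0.038, adjusted p = 0.354). The label Tg-GRK2 was thus not borne out by the level of mouse Grk2, and these hearts are named by their label throughout. The species of the transgene's sequence was not given in the sources used here, and reads of another species may not be counted under Grk2. The 8 cardiomyocyte markers summed to 59304 to 60425, 61308 to 63064 and 63760.1 to 64040.5 TPM in Tg-RKIP, labelled Tg-GRK2 and FVB hearts. In the edgeR test of counts 7 of the 8 were lower and 0 higher in Tg-RKIP against FVB, with Ryr2, Myh6 and Pln at -2.07 (SE 0.017), -1.35 (SE 0.0097) and -1.34 (SE 0.013), and 6 were lower and 2 higher in the hearts labelled Tg-GRK2, where 37.1% and 36.8% of all genes were lower and higher in the former comparison and 12.2% and 12.2% in the latter. Their sum in Tg-RKIP was 0.939 of the FVB mean in TPM and 0.592 in TMM-normalised counts (counts scaled between libraries by the trimmed mean of M-values), and its part in the collagen results was not tested. Libraries held 25458108 to 33447654 reads assigned to transcripts, of which 11.5 to 11.8% were mitochondrial in Tg-RKIP, 22.4 to 22.9% in the hearts labelled Tg-GRK2 and 22.9 to 23.2% in FVB. The part of the mitochondrial share in the results below was not tested.

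Collagens are trimeric proteins of the extracellular matrix, and each gene encodes 1 type of chain. Fibrillar collagens form the load-bearing fibres between cardiomyocytes, where types I and III predominate and come largely from fibroblasts. Network-forming type IV collagen lines the basement membranes of cardiomyocytes and vessels, type VI collagen forms beaded microfilaments, FACIT collagens decorate the surface of fibrils, and transmembrane collagens are anchored in the plasma membrane. An increase of interstitial collagen is the defining feature of cardiac fibrosis.

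Most of the collagen genes tested had higher counts than in FVB hearts in each transgenic group taken by itself, and the 7 fibrillar genes tested were among them in both. Counts of reads per gene were tested with edgeR (quasi-likelihood test), and p-values were adjusted over 15504 genes by the method of Benjamini and Hochberg, at a threshold of 0.05. Of the 37 members, 32 passed the expression filter. In Tg-RKIP hearts against FVB, 26 of the 32 tested members were higher, 2 were lower and 4 were not called, while 36.8% of all genes tested were higher and 37.1% were lower. A log2 fold change of at least 1 was reached by 16 of the members that were higher, compared with 10.2% of all genes tested. The median log2 fold change was 1.00 over the members and 0.0085 over all genes. In hearts labelled Tg-GRK2 against FVB, 19 of the 32 members were higher, 0 were lower and 13 were not called, with 12.2% of all genes higher and 12.2% lower. By an unadjusted p under 0.05, and by DESeq2, the number of members lower in this comparison was also 0. Limma on log2(TPM + 0.1) called Col6a5 lower, at -0.39 (adjusted p = 0.0116). The median over the members was 0.39 in this comparison and that over all genes was -0.0023. Between the transgenic groups, 23 members were higher in Tg-RKIP, 4 were lower and 5 were not called, against 37.9% and 36.6% of all genes. The comparisons share libraries, so they are not independent of each other. In whole hearts, more cells of a collagen-producing type and more collagen RNA per cell cannot be told apart.

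**Figure D1:**
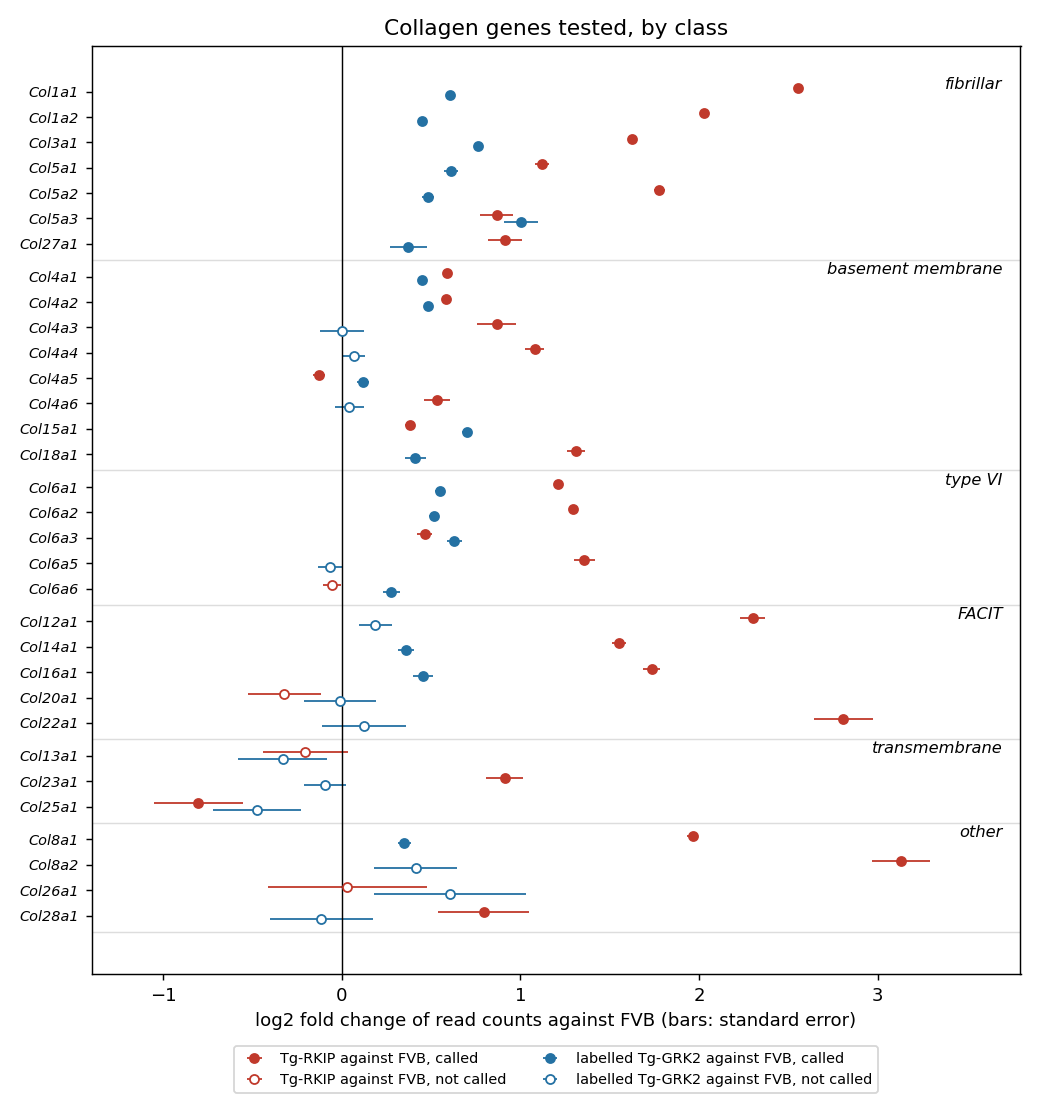
Log2 fold change of read counts against FVB for the 32 collagen genes tested, by class, with standard errors as bars. Red points are Tg-RKIP hearts and blue points hearts labelled Tg-GRK2, and open points did not pass the threshold. All 7 fibrillar genes tested lie above 0 in both comparisons, and Col8a2, Col22a1 and Col1a1 lie farthest to the right in Tg-RKIP.

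The sequence just before the annotated start of transcription is shown for 4 members, Col1a2 and Col3a1 as the most abundant fibrillar genes with an entry, Col8a2 as the member with the largest log2 fold change of counts in Tg-RKIP, and Col4a5 as a member that was called lower there. Each run is the 250 bases before the RefSeq start on build GRCm38.p6, 5′ to 3′ on the strand of the gene, which is the plus strand for all 4. These starts were not compared with those in the GRCm39 annotation of the counts, where the span of Col1a2 begins at chr6:4504814. A window may thus lie within the gene as annotated there. The positions are chr6:4505368-4505617 for Col1a2, chr1:45311288-45311537 for Col3a1, chr4:126286544-126286793 for Col8a2 and chrX:141475169-141475418 for Col4a5. Capitals mark matches on either strand to the CCAAT box letters themselves, to the GC box letters GGGCGG, to the TATA box letters TATAAA and to the AP-1 site letters TGANTCA, and matches to different motifs did not overlap in these windows.
Col1a2: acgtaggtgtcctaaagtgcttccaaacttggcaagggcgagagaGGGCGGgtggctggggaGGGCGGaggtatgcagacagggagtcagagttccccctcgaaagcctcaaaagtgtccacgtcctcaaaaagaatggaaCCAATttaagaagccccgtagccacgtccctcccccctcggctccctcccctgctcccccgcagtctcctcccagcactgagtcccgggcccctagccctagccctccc
Col3a1: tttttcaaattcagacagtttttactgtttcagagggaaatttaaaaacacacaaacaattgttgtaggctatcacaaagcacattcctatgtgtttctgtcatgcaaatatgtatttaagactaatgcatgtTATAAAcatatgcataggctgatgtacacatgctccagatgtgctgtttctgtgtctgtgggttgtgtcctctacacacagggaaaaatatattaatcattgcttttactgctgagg
Col8a2: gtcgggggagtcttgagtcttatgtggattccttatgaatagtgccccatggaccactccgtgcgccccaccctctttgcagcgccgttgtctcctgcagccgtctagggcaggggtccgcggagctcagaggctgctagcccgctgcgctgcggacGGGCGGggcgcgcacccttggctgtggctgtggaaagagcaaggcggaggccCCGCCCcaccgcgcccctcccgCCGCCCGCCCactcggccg
Col4a5: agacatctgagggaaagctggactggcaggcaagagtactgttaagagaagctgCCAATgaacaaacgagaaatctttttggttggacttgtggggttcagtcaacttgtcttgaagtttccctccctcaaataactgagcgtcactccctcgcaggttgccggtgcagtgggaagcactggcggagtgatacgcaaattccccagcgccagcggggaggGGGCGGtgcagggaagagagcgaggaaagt
The Col1a2 window held 1 match to CCAAT and 2 to GGGCGG, the GC-poor Col3a1 window (35.2% GC) held 1 TATAAA, and the Col8a2 window (70.0% GC) held 4 GGGCGG matches on either strand, of which the last pair overlap. Over the 32 windows of the 30 members with an entry, GGGCGG was found in 19 (59.4%), compared with 32.7% of 32851 windows of all genes. CCAAT was found in 11 member windows and 33.8% of all windows, TATAAA in 3 and 12.4%, and TGANTCA in 1 and 6.75%. Windows of 250 bases differ in base composition, and a match is a run of letters and not a binding site. Col1a1, Col4a3, Col5a2, Col12a1, Col14a1, Col22a1 and Col26a1 were not among the entries.

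Fibrillar collagens made up the largest part of the collagen transcripts and rose in both transgenic groups. Their summed level was 976 ± 15.8 TPM in Tg-RKIP, 291 ± 5.29 TPM in the hearts labelled Tg-GRK2 and 191 ± 2.46 TPM in FVB, that is 5.10 and 1.52 times the FVB mean. With TMM-normalised counts the sums were 3.85 and 1.53 times the FVB mean. Col1a1, Col1a2 and Col3a1, which encode the chains of types I and III, rose in Tg-RKIP hearts by log2 fold changes of 2.55, 2.03 and 1.63, and in hearts labelled Tg-GRK2 by 0.61, 0.45 and 0.76. Of the 8 fibrillar genes, 7 were tested and all 7 were higher in each of the transgenic groups by counts, with medians of 1.63 and 0.61, where the call of Col27a1 in the hearts labelled Tg-GRK2 was lost on the TPM scale. Among all genes tested, 36.8% were higher in Tg-RKIP and 12.2% in the hearts labelled Tg-GRK2.

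Col1a1, on chr11:94827050-94843868 of build GRCm39, encodes the alpha-1 chain of type I collagen. Its transcript levels were 223, 218 and 219 TPM in Tg-RKIP hearts, 43.7, 46.0 and 43.2 TPM in hearts labelled Tg-GRK2 and 28.6, 27.3 and 28.4 TPM in FVB hearts. The 3 groups did not overlap, and the Tg-RKIP hearts stood far above both others. The log2 fold change against FVB was 2.55 (SE 0.022, adjusted p = 2.57e-27) in Tg-RKIP and 0.61 (SE 0.023, adjusted p = 1.02e-14) in the hearts labelled Tg-GRK2. Col1a2, on chr6:4504814-4541544, encodes the alpha-2 chain of the same trimer and was at 318, 312 and 309.8 TPM in Tg-RKIP hearts, 81.9, 83.2 and 80.3 TPM in hearts labelled Tg-GRK2 and 57.9, 57.6 and 57.1 TPM in FVB hearts. It followed the order of Col1a1, with log2 fold changes of 2.03 (SE 0.017) and 0.45 (SE 0.017). The type III gene Col3a1, on chr1:45350698-45388866, was the most abundant member in every group by TPM, at 371, 355 and 367 TPM in Tg-RKIP hearts, 131, 133 and 141 TPM in hearts labelled Tg-GRK2 and 86.0, 83.4 and 87.3 TPM in FVB hearts. Log2 fold changes of Col3a1 were 1.63 (SE 0.018, adjusted p = 3.27e-25) and 0.76 (SE 0.019, adjusted p = 3.66e-18), so that it rose less than Col1a1 in Tg-RKIP and more than Col1a1 in the hearts labelled Tg-GRK2 by point estimate.

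The proportion of type I to type III transcripts was higher in Tg-RKIP than in both other groups. The ratio of Col1a1 to Col3a1 in TPM was 0.605 ± 0.00863 (SD, n = 3) in Tg-RKIP, 0.329 ± 0.0199 in the hearts labelled Tg-GRK2 and 0.328 ± 0.00372 in FVB. All Tg-RKIP ratios were above all others (exact two-sided permutation test, p = 0.1, the smallest that 3 against 3 allows). With reads per kilobase in place of TPM the ratio was 0.841 ± 0.00955, 0.398 ± 0.00776 and 0.442 ± 0.00579, and on this scale every heart labelled Tg-GRK2 was below every FVB heart (exact p = 0.1), a separation that TPM did not show (exact p = 1). The ratio of Col1a1 to Col1a2 in reads per kilobase, which are chains of 1 trimer, was 0.704 ± 0.00364 in Tg-RKIP, 0.546 ± 0.0106 in the hearts labelled Tg-GRK2 and 0.489 ± 0.0129 in FVB, without overlap between any pair of groups (exact p = 0.1 for each). In all, 11 ratios were compared between 3 pairs of groups, and after Benjamini-Hochberg adjustment over these 33 tests on each scale no p was below 0.132.

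Type V collagen, which sets the diameter of type I fibrils, is encoded by Col5a1, Col5a2 and Col5a3. Col5a1 was at 40.1, 36.3 and 40.5 TPM in Tg-RKIP hearts, 15.2, 17.7 and 16.0 TPM in hearts labelled Tg-GRK2 and 10.7, 11.0 and 10.7 TPM in FVB hearts. Col5a2 was at 34.0, 33.5 and 32.4 TPM in Tg-RKIP hearts, 10.1, 11.0 and 10.8 TPM in hearts labelled Tg-GRK2 and 7.26, 7.18 and 7.28 TPM in FVB hearts. Both were highest in Tg-RKIP and lowest in FVB without overlap, with log2 fold changes in Tg-RKIP of 1.12 (SE 0.038) and 1.78 (SE 0.032) and in hearts labelled Tg-GRK2 of 0.61 (SE 0.040) and 0.48 (SE 0.036). The call of Col5a1 in the hearts labelled Tg-GRK2 was lost on its most abundant transcript alone. The third type V gene, Col5a3, behaved differently. Its TMM-normalised counts were 259, 258 and 256 in the Tg-RKIP hearts, 295, 292 and 263 in the hearts labelled Tg-GRK2 and 156, 149 and 117 in FVB. Both transgenic groups were above FVB, by 0.87 (SE 0.094, adjusted p = 3.43e-08) and 1.00 (SE 0.095, adjusted p = 6.08e-08), and the difference between them did not pass the threshold although the libraries did not overlap, at -0.14 (SE 0.081, adjusted p = 0.137). With scaling to library size only this difference was 0.23 (adjusted p = 0.0143), where the median over all genes was 0.38. In TPM the Tg-RKIP hearts lay above the hearts labelled Tg-GRK2 without overlap, at 2.66 ± 0.0499 and 2.26 ± 0.149 TPM. Col5a3 and Col15a1 had the largest log2 fold changes of the members in the hearts labelled Tg-GRK2 together with Col3a1, whose value lay between them. Col27a1, a fibrillar gene expressed at 1.10 ± 0.150 TPM in FVB, was higher by 0.91 (SE 0.095, adjusted p = 1.82e-08) in Tg-RKIP and by 0.37 (SE 0.10, adjusted p = 0.0111) in the hearts labelled Tg-GRK2. The latter was 0.13 (adjusted p = 0.662) with limma on log2(TPM + 0.1), and the TPM of these hearts overlapped with FVB. Col24a1 did not pass the filter, with read counts of 5, 21 and 12 in Tg-RKIP and of 0 to 2 elsewhere. A count of 0 allows up to 3 reads per library, so that a difference between the groups other than Tg-RKIP was not detectable at this depth.

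**Figure D2:**
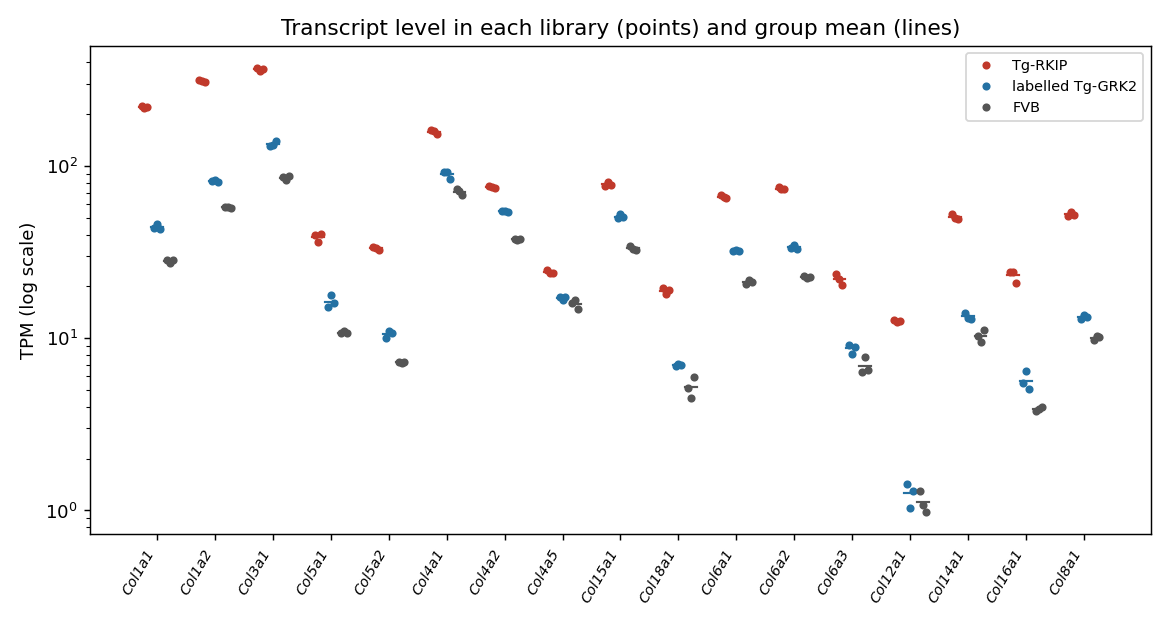
Transcript level in TPM on a log axis for the 17 tested members with at least 10 TPM in the mean of a group, with 1 point per library and a line at each group mean. Col3a1 has the highest group means, up to 364 TPM in Tg-RKIP, and Col12a1 lies between 0.984 and 1.43 TPM in all libraries other than Tg-RKIP.

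The order of the members by level also changed. In FVB the 3 highest by TPM were Col3a1, Col4a1 and Col1a2 at 85.6 ± 2.00, 71.1 ± 2.98 and 57.5 ± 0.394 TPM, and Col1a1 was in sixth place at 28.1 ± 0.693 TPM. The same order held for these genes in the hearts labelled Tg-GRK2, with 135 ± 5.23, 89.6 ± 5.19, 81.8 ± 1.42 and, for Col1a1, 44.3 ± 1.46 TPM. In Tg-RKIP the order was Col3a1, Col1a2, Col1a1 and Col4a1, at 364 ± 8.07, 313 ± 4.34, 220.3 ± 2.66 and 159 ± 4.92 TPM. The leading genes named here did not overlap with their neighbours in the order, whereas Col15a1 and Col4a2 did overlap in Tg-RKIP, at 78.5 ± 2.47 and 75.4 ± 1.14 TPM. The order depends on how short transcripts are weighted. By reads per kilobase of the transcript with the most reads and scaled to the same depth, Col1a2 led in Tg-RKIP at 203 ± 2.12, followed by Col3a1 at 169.7 ± 0.386 and Col1a1 at 143 ± 1.42, and the first places in FVB were Col3a1 at 42.4 ± 0.527, Col1a2 at 38.3 ± 0.158 and Col4a1 at 34.8 ± 0.731.

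Summed over all 37 members, collagen transcripts came to 1669.8 ± 24.4 TPM in Tg-RKIP, 634 ± 8.28 TPM in the hearts labelled Tg-GRK2 and 445 ± 3.75 TPM in FVB, without overlap between the groups (exact p = 0.1 for each pair). The fold of the FVB mean was 3.75 in Tg-RKIP and 1.42 in the hearts labelled Tg-GRK2 on the TPM scale, and 2.68 and 1.44 with TMM-normalised counts. TPM is a share of all transcripts, and its median log2 fold change over all genes was itself 0.43 in Tg-RKIP against FVB. The share of all reads that fell on the members was 0.510 ± 0.00488% in Tg-RKIP, 0.212 ± 0.00303% in the hearts labelled Tg-GRK2 and 0.147 ± 0.000796% in FVB.

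The make-up of these collagen reads differed as well. Fibrillar genes took 61.5 to 61.8% of the collagen reads of the Tg-RKIP libraries, 45.4 to 46.2% in those labelled Tg-GRK2 and 42.7 to 43.1% in FVB. Basement membrane genes took 20.8 to 21.0%, 36.4 to 37.0% and 38.2 to 38.7%. The fibrillar share was therefore highest in Tg-RKIP, and the basement membrane share highest in FVB, without overlap between any pair of groups. Type VI genes took 9.32 ± 0.0488%, 11.8 ± 0.0546% and 12.0 ± 0.174%, FACIT genes 4.16 ± 0.0740%, 3.10 ± 0.103% and 3.48 ± 0.109%, and transmembrane genes less than 1% in every library. Col1a1, Col1a2 and Col3a1 alone held 56.3 ± 0.226% of the collagen reads in Tg-RKIP and 37.7 ± 0.129% in FVB.

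**Figure D3:**
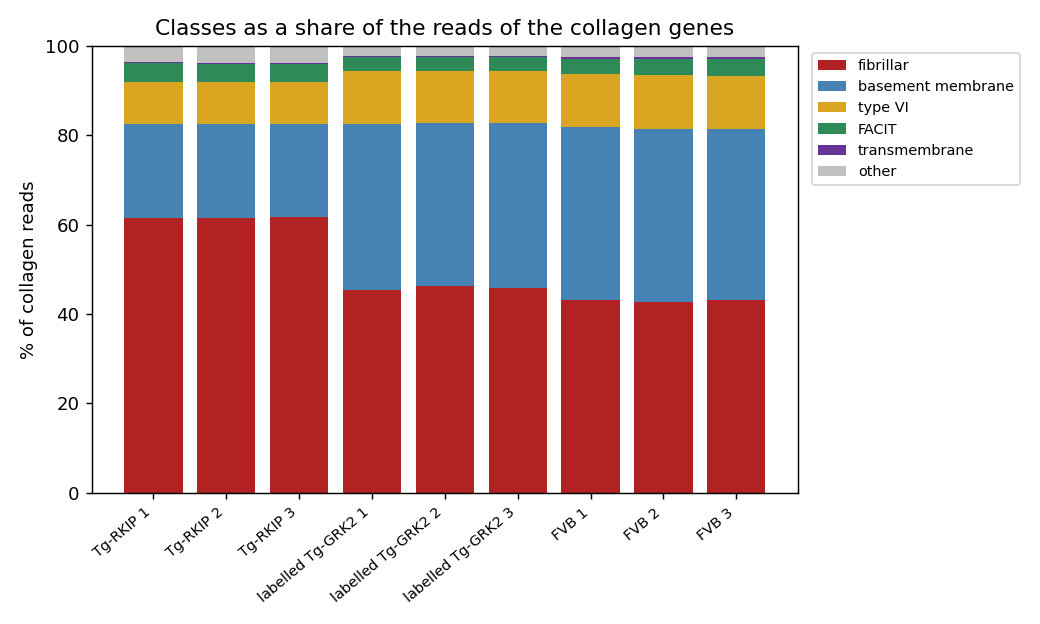
Share of the reads of the 37 collagen genes that falls on each class, in %, with 1 stacked bar per library. The fibrillar share is 61.5 to 61.8% in the 3 Tg-RKIP libraries and 42.7 to 43.1% in the 3 FVB libraries.

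Basement membrane collagens rose less, and their chains did not move together. Of 8 genes, 7 were higher and 1 was lower in Tg-RKIP (median log2 fold change 0.59), and 5 were higher and 3 were not called in the hearts labelled Tg-GRK2 (median 0.27). Among all genes tested, 36.8% were higher and 37.1% lower in Tg-RKIP, and 12.2% and 12.2% in the hearts labelled Tg-GRK2. The type IV genes lie in head-to-head pairs. Col4a1 and Col4a2 on chromosome 8 encode the ubiquitous network and overlap by 22 bases at their starts, Col4a4 and Col4a3 on chromosome 1 are 71 bases apart, and Col4a6 and Col4a5 on the X chromosome are 1308 bases apart (GRCm39). Col4a1 was at 163, 160.0 and 153 TPM in Tg-RKIP hearts, 92.7, 92.6 and 83.6 TPM in hearts labelled Tg-GRK2 and 73.9, 71.4 and 67.9 TPM in FVB hearts. Col4a2 was at 76.5, 75.4 and 74.2 TPM in Tg-RKIP hearts, 54.8, 55.0 and 54.0 TPM in hearts labelled Tg-GRK2 and 37.6, 37.5 and 37.9 TPM in FVB hearts. In both genes the groups were ordered Tg-RKIP, labelled Tg-GRK2 and FVB without overlap. By counts the pair rose alike, by 0.59 (SE 0.020) and 0.58 (SE 0.019) in Tg-RKIP and by 0.45 (SE 0.021) and 0.48 (SE 0.019) in the hearts labelled Tg-GRK2. The ratio of Col4a1 to Col4a2 in reads per kilobase was 1.39 ± 0.0210, 1.36 ± 0.00719 and 1.39 ± 0.0381 in Tg-RKIP, labelled Tg-GRK2 and FVB, and by this measure the libraries of each transgenic group overlapped with FVB. In TPM the ratio was 2.10 ± 0.0357, 1.64 ± 0.0790 and 1.89 ± 0.0863, above FVB in Tg-RKIP and below it in the hearts labelled Tg-GRK2 without overlap (exact p = 0.1 each).

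The second pair, Col4a3 and Col4a4, encodes chains best known from the glomerulus. Col4a4 was at 5.10, 4.78 and 4.87 TPM in Tg-RKIP hearts, 1.93, 1.96 and 1.78 TPM in hearts labelled Tg-GRK2 and 1.75, 1.66 and 1.81 TPM in FVB hearts. The Tg-RKIP hearts were above all others, whereas the hearts labelled Tg-GRK2 overlapped with FVB. Its log2 fold change was 1.08 (SE 0.053, adjusted p = 4e-14) in Tg-RKIP and 0.067 (SE 0.061, adjusted p = 0.481) in the hearts labelled Tg-GRK2, and Col4a3, at 0.731 ± 0.110 TPM in FVB, gave 0.87 (SE 0.11, adjusted p = 2.83e-07) and 0.0033 (SE 0.12, adjusted p = 0.991). Col4a6 was also higher in Tg-RKIP, by 0.53 (SE 0.074, adjusted p = 1.32e-06), and gave 0.042 (SE 0.081, adjusted p = 0.766) in the hearts labelled Tg-GRK2.

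Col4a5, the neighbour of Col4a6, was a member whose direction depended on the measure. Its TMM-normalised counts were 1663, 1595 and 1604 in the Tg-RKIP hearts, 1959.9, 1851 and 1943 in the hearts labelled Tg-GRK2 and 1774, 1821 and 1708 in FVB. On this scale the Tg-RKIP hearts were lowest, with log2 fold changes of -0.13 (SE 0.034, adjusted p = 0.00187) against FVB and -0.24 (SE 0.033, adjusted p = 8.03e-07) against the hearts labelled Tg-GRK2. The small rise in the hearts labelled Tg-GRK2, 0.12 (SE 0.034, adjusted p = 0.0131), did not pass the threshold without replicate 1 or replicate 3 of that group or without FVB replicate 3 (adjusted p up to 0.081). In TPM the Tg-RKIP hearts were instead highest, at 24.8, 24.0 and 24.0 TPM. The levels were 17.4, 16.7 and 17.3 TPM in hearts labelled Tg-GRK2 and 16.0, 16.6 and 14.8 TPM in FVB hearts. The hearts labelled Tg-GRK2 lay above FVB on both scales. A transcript of 3511 bases that ends within 54 bases of the 3′ end of the main one took 62.6% ± 1.76 of the Col4a5 reads in Tg-RKIP and 24.7% ± 3.73 in FVB, and a read on a shorter transcript counts for more in TPM. With scaling to library size only the log2 fold change was 0.25, where the median over all genes was 0.38. After adjustment for transcript length it was 0.047 (adjusted p = 0.22). On the transcript with the most reads alone it was -1.06 (adjusted p = 6.22e-06) against FVB. Against the hearts labelled Tg-GRK2 it was then -1.30 (adjusted p = 1.54e-06).

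Col15a1 and Col18a1 encode the multiplexin collagens of the outer basement membrane, the latter being the source of endostatin. Col15a1 was at 76.3, 81.2 and 78.1 TPM in Tg-RKIP hearts, 49.9, 52.5 and 50.3 TPM in hearts labelled Tg-GRK2 and 34.2, 32.9 and 32.7 TPM in FVB hearts. In counts, however, it was highest in the hearts labelled Tg-GRK2, at 4164, 4307 and 4142 compared with 3374, 3384 and 3349 in Tg-RKIP and 2588, 2609 and 2569.8 in FVB. It was higher than FVB by 0.38 (SE 0.024, adjusted p = 5.14e-12) in Tg-RKIP and by 0.70 (SE 0.024, adjusted p = 3.04e-15) in the hearts labelled Tg-GRK2, and lower in Tg-RKIP than in the latter, at -0.32 (SE 0.023, adjusted p = 3.91e-11). Scaling to library size only turned this last value to 0.044, where the median over all genes was 0.38. A transcript of 1755 bases at its 3′ end held 45.7% ± 2.99 of the gene's reads in Tg-RKIP, 14.5% ± 0.556 in the hearts labelled Tg-GRK2 and 20.1% ± 0.402 in FVB. Without it, on the transcript with the most reads, the log2 fold change in Tg-RKIP against FVB was -0.20 (adjusted p = 0.00463). Against the hearts labelled Tg-GRK2 it was -0.97 (adjusted p = 1.56e-07). Col18a1 had TMM-normalised counts of 1239.8, 1356 and 1308 in Tg-RKIP, 699.6, 675 and 719.9 in the hearts labelled Tg-GRK2 and 549, 479 and 551 in FVB, without overlap. It rose most of the basement membrane genes in Tg-RKIP, by 1.31 (SE 0.051, adjusted p = 6.52e-16), and by 0.41 (SE 0.058, adjusted p = 1.32e-05) in the hearts labelled Tg-GRK2, where the transcript with the most reads alone gave 0.25 (adjusted p = 0.107).

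Type VI collagen is assembled from an alpha-1, an alpha-2 and 1 further chain, which can be encoded by Col6a3 or by the tandem genes Col6a4, Col6a5 and Col6a6 on chromosome 9. Of the 5 type VI genes tested, 4 were higher in Tg-RKIP (median 1.21) and 4 in the hearts labelled Tg-GRK2 (median 0.52), but not the same 4. Among all genes tested, 36.8% and 12.2% were higher. After adjustment for transcript length 5 type VI genes were higher in Tg-RKIP and 4 in the hearts labelled Tg-GRK2. The shares of all genes that were higher were then 31.7% and 9.43%. Col6a1 was at 67.6, 65.8 and 64.9 TPM in Tg-RKIP hearts, 32.1, 32.7 and 32.1 TPM in hearts labelled Tg-GRK2 and 20.8, 21.9 and 21.3 TPM in FVB hearts. Col6a2 was at 75.2, 73.4 and 73.7 TPM in Tg-RKIP hearts, 33.2, 34.7 and 33.2 TPM in hearts labelled Tg-GRK2 and 22.9, 22.4 and 22.6 TPM in FVB hearts. These neighbours on chromosome 10 were ordered alike and without overlap, with log2 fold changes in Tg-RKIP of 1.21 (SE 0.026) and 1.29 (SE 0.024) and in hearts labelled Tg-GRK2 of 0.55 (SE 0.028) and 0.52 (SE 0.026). The ratio of Col6a1 to Col6a2 in reads per kilobase lay between 0.855 and 0.950 in all 9 libraries, with the Tg-RKIP libraries below all others (exact p = 0.1).

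The genes for the further chains diverged. Col6a3 had TMM-normalised counts of 1253, 1226 and 1135 in Tg-RKIP, 1402, 1362 and 1299 in the hearts labelled Tg-GRK2 and 873, 867 and 882 in FVB, and was at 23.5, 22.0 and 20.5 TPM in Tg-RKIP hearts, 9.18, 8.15 and 8.91 TPM in hearts labelled Tg-GRK2 and 6.36, 7.78 and 6.52 TPM in FVB hearts. Counts placed the hearts labelled Tg-GRK2 above Tg-RKIP and TPM placed them below. The log2 fold change of counts was 0.46 (SE 0.043, adjusted p = 2.43e-09) in Tg-RKIP against FVB, 0.63 (SE 0.043, adjusted p = 3.82e-10) in the hearts labelled Tg-GRK2 against FVB and -0.17 (SE 0.039, adjusted p = 0.000698) between the transgenic groups. The last value turned to 0.22 after adjustment for transcript length. It turned to 0.20 with scaling to library size only, where the median over all genes was 0.38. A transcript of 646 bases near the 3′ end of Col6a3 took 12.4% ± 0.382 of the gene's reads in Tg-RKIP and 3.86% ± 1.49 in FVB. Col6a5 was at 9.13, 8.35 and 8.64 TPM in Tg-RKIP hearts, 1.72, 1.94 and 1.66 TPM in hearts labelled Tg-GRK2 and 2.45, 2.22 and 2.40 TPM in FVB hearts. It was higher in Tg-RKIP by 1.36 (SE 0.058, adjusted p = 3.21e-15) and gave -0.063 (SE 0.071, adjusted p = 0.586) in the hearts labelled Tg-GRK2, whose libraries overlapped with FVB in counts and lay below FVB in TPM. Col6a6 showed another pattern, with TMM-normalised counts of 564, 627 and 607 in Tg-RKIP, 748, 785 and 743 in the hearts labelled Tg-GRK2 and 619, 638 and 617 in FVB. It was called in the hearts labelled Tg-GRK2, at 0.28 (SE 0.049, adjusted p = 0.000207), and not in Tg-RKIP, at -0.057 (SE 0.050, adjusted p = 0.313). In Tg-RKIP it turned to higher with scaling to library size only, at 0.32 (adjusted p = 5.27e-06), after adjustment for transcript length, at 0.23 (adjusted p = 0.000268), and with limma on log2(TPM + 0.1), at 0.35 (adjusted p = 0.001), and its TPM lay above FVB without overlap. The median over all genes was 0.38 with library size only, -0.053 with the length adjustment and 0.43 with limma. Only with the length adjustment did Col6a6 lie above that median. The ratio of Col6a5 to Col6a6 in reads per kilobase was 1.18 ± 0.0914 in Tg-RKIP, 0.348 ± 0.0345 in the hearts labelled Tg-GRK2 and 0.441 ± 0.00932 in FVB, without overlap (exact p = 0.1 for each pair). Col6a4 had 0 to 3 reads in every library and was not tested.

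Between the transgenic groups, 4 of the 5 FACIT genes tested were higher in Tg-RKIP, as were 6 of the 7 fibrillar genes tested. Among all genes tested, 37.9% were higher in that comparison. Col12a1, Col14a1, Col16a1 and Col22a1 rose in Tg-RKIP by log2 fold changes of 1.55 to 2.81 (median of the 5 tested 1.74), whereas in the hearts labelled Tg-GRK2 2 of the 5 were called (median 0.19). Among all genes tested, 36.8% were higher in Tg-RKIP and 12.2% in the hearts labelled Tg-GRK2. Col12a1, whose product binds type I fibrils in tissue under tension, was at 12.7, 12.4 and 12.7 TPM in Tg-RKIP hearts, 1.43, 1.04 and 1.30 TPM in hearts labelled Tg-GRK2 and 1.29, 1.07 and 0.984 TPM in FVB hearts. The Tg-RKIP hearts stood apart from both other groups, which overlapped. In counts, which do not weight the short transcript more heavily, Col12a1 was at 714, 741 and 708 in Tg-RKIP and 156, 148 and 135 in FVB, a log2 fold change of 2.30 (SE 0.069, adjusted p = 5.88e-18). In hearts labelled Tg-GRK2 the value was 0.19 (SE 0.093, adjusted p = 0.159), and between the transgenic groups 2.11 (SE 0.066, adjusted p = 1.12e-17). A transcript of 1784 bases with the same 3′ end held 38.2% ± 1.65 of the Col12a1 reads in Tg-RKIP and 15.2% ± 2.99 in FVB. On the transcript with the most reads the log2 fold change in Tg-RKIP was 1.83.

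Col14a1, another fibril-associated collagen, was at 52.8, 50.0 and 49.2 TPM in Tg-RKIP hearts, 14.0, 13.2 and 12.9 TPM in hearts labelled Tg-GRK2 and 10.3, 9.52 and 11.1 TPM in FVB hearts. Col16a1 was at 24.3, 24.4 and 21.1 TPM in Tg-RKIP hearts, 5.53, 6.44 and 5.06 TPM in hearts labelled Tg-GRK2 and 3.78, 3.90 and 3.99 TPM in FVB hearts. Both were called in each transgenic group, by 1.55 (SE 0.039) and 1.74 (SE 0.047) in Tg-RKIP and by 0.36 (SE 0.044) and 0.45 (SE 0.056) in the hearts labelled Tg-GRK2. On the transcript with the most reads alone neither passed the threshold in the hearts labelled Tg-GRK2, at 0.13 (adjusted p = 0.675) for Col14a1 and 0.93 (adjusted p = 0.112) for Col16a1. Col22a1, a collagen of tissue junctions such as the muscle-tendon junction, was low in FVB and had 2.68, 2.61 and 1.84 TPM in Tg-RKIP hearts, 0.132, 0.328 and 0.286 TPM in hearts labelled Tg-GRK2 and 0.210, 0.357 and 0.467 TPM in FVB hearts. At 2.81 (SE 0.17, adjusted p = 1.16e-12), the log2 fold change of Col22a1 in Tg-RKIP was the second largest of the members by counts. That in the hearts labelled Tg-GRK2 was 0.12 (SE 0.24, adjusted p = 0.762). With limma on log2(TPM + 0.1) Col22a1 gave 2.50 in Tg-RKIP, below Col12a1, Col8a2, Col1a1 and Col16a1 at 3.39, 3.20, 2.97 and 2.55. Col20a1, at 0.604 ± 0.149 TPM in FVB, was not called in either comparison with FVB. Col19a1 had 1 to 6 reads in every library and was not tested.

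Transmembrane collagens were scarce and showed no common direction. Col23a1, at 1.21 ± 0.0775 TPM in FVB, was higher in Tg-RKIP by 0.91 (SE 0.10, adjusted p = 5.17e-08) and gave -0.094 (SE 0.12, adjusted p = 0.628) in the hearts labelled Tg-GRK2. Col25a1, known from the nervous system as the precursor of a component of amyloid plaques, was lower in Tg-RKIP, at -0.80 (SE 0.25, adjusted p = 0.00622), with TMM-normalised counts of 17.9, 22.0 and 27.0 against 33.7, 36.0 and 47.4 in FVB. This call was lost with scaling to library size only (adjusted p = 0.116), where the median over all genes was 0.38. Col13a1, at 0.530 ± 0.171 TPM in FVB, was not called in any comparison. Col17a1 did not pass the filter.

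Col8a1 and Col8a2, the short-chain network-forming collagens of vessel walls and of the corneal Descemet membrane, were among the members that changed most in Tg-RKIP. Col8a1 was at 51.6, 53.9 and 52.0 TPM in Tg-RKIP hearts, 13.0, 13.6 and 13.4 TPM in hearts labelled Tg-GRK2 and 9.76, 10.3 and 10.2 TPM in FVB hearts, with log2 fold changes of 1.97 (SE 0.031, adjusted p = 7.16e-23) and 0.35 (SE 0.036, adjusted p = 1.73e-07). Col8a2 was at 5.57, 4.26 and 5.32 TPM in Tg-RKIP hearts, 0.548, 0.545 and 0.668 TPM in hearts labelled Tg-GRK2 and 0.496, 0.268 and 0.690 TPM in FVB hearts. The Tg-RKIP hearts were above all others, and the hearts labelled Tg-GRK2 overlapped with FVB. Its log2 fold change of 3.13 (SE 0.16, adjusted p = 9.92e-14) in Tg-RKIP was the largest of the members by counts. That in the hearts labelled Tg-GRK2 was 0.41 (SE 0.23, adjusted p = 0.221). With limma on log2(TPM + 0.1) Col8a2 gave 3.20 in Tg-RKIP, below 3.39 for Col12a1. The ratio of Col8a1 to Col8a2 in TPM was 10.6 ± 1.84 in Tg-RKIP and 24.2 ± 12.5 in FVB, where the low Col8a2 counts gave a wide spread. Col28a1, at 0.315 ± 0.0448 TPM in FVB, was higher in Tg-RKIP by 0.80 (SE 0.25, adjusted p = 0.00794), or 0.77 (adjusted p = 0.0663) on the transcript with the most reads alone, and not called in the hearts labelled Tg-GRK2. Col26a1 was not called in any comparison, and Col7a1, the anchoring fibril collagen of skin, had 0 to 14 reads per library and was not tested.

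The length of transcripts moved with the comparison, and its part in the collagen results was measured by an adjustment chosen after the data had been seen. Over all genes the median log2 fold change in Tg-RKIP against FVB fell from 0.17 for transcripts of 1000 to 2000 bases to -0.47 for those over 10000 bases. In the hearts labelled Tg-GRK2 it ran the other way, from -0.089 up to 1000 bases to 0.093 over 10000 bases. Collagen transcripts are long, from 2724 bases in Col26a1 to 11511 bases in Col12a1 among the members tested. With the length curve of each library removed, 27 of the 32 members were higher in Tg-RKIP and 1 was lower, with a median of 1.19, compared with 31.7% and 40.3% of all genes. The member added was Col6a6, at 0.23 (adjusted p = 0.000268), and Col4a5 was no longer called. In the hearts labelled Tg-GRK2 18 were higher and 0 lower with a median of 0.33, compared with 9.43% and 13.6% of all genes, where without the adjustment they were 19 and 0 with a median of 0.39. The call that was lost was Col4a5 (adjusted p = 0.279).

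**Figure D4:**
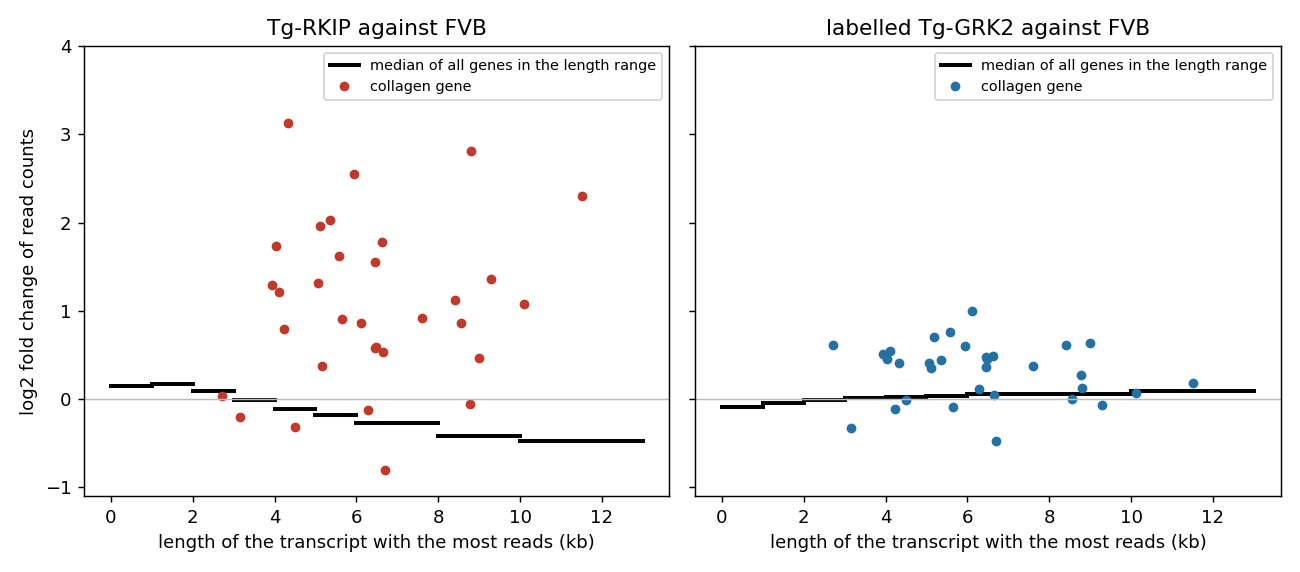
Log2 fold change of read counts against FVB and length of the transcript with the most reads, in kb, for the 32 collagen genes tested (points), with the median of all genes in each length range as black lines, the last of which stands for all lengths over 10 kb. The medians fall with length in Tg-RKIP and rise slightly in the hearts labelled Tg-GRK2, and most points lie above the line of their length in Tg-RKIP.

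Within the members, reads also moved towards short transcripts in Tg-RKIP. A transcript was listed as short when it was under 60% of the length of its gene's transcript with the most reads and its mean shares of the gene's reads in the 3 groups summed to at least 5%, which gave 13 transcripts of 12 genes. Of these, 11 ended within 2500 bases of the 3′ end of the transcript with the most reads. The read share was higher in every Tg-RKIP library than in every FVB library for 9 of the 13, against 19.7% of the short transcripts of all genes tested, and lower in every library labelled Tg-GRK2 than in every FVB library for 6, against 7.14%. The short transcripts of all genes were not matched to the 13 for gene length or read depth, so whether collagen genes differ from other long genes was not tested. Col14a1 gave 33.5% ± 0.977 in Tg-RKIP and 16.2% ± 1.73 in FVB, and Col5a1 17.9% ± 1.72 and 10.9% ± 2.08. In Col12a1 the short transcript made up 77.2% of the summed TPM in Tg-RKIP, and summed TPM gave a ratio of 11.3 to FVB where counts gave a fold of 4.93. These measures also differ in scaling, with a log2 fold change of counts of 2.30 under TMM and 2.68 with scaling to library size only, and the part of each was not tested. How reads shared by several transcripts were divided was not given in the sources used here, and the part of RNA quality in these shares was not tested.

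**Figure D5:**
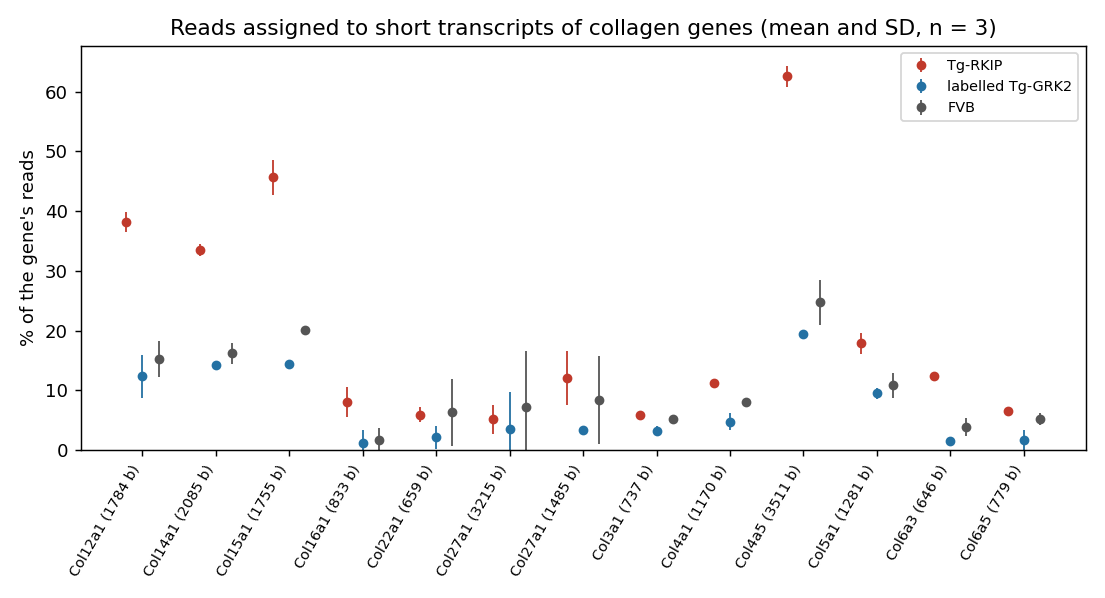
Share of each gene's reads that is assigned to its short transcripts, in % (mean and SD of 3 libraries), for the 13 short transcripts of collagen genes, labelled with their length in bases. The largest gap between Tg-RKIP and FVB is in Col4a5, at 62.6% ± 1.76 and 24.7% ± 3.73.

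Genes for the making of collagen were read from a list of 34, all of which were tested. In Tg-RKIP 26 were higher and 4 lower (median log2 fold change 0.59), where 36.8% and 37.1% of all genes were, and in the hearts labelled Tg-GRK2 12 were higher and 3 lower (median 0.12), where 12.2% and 12.2% of all genes were. The 5 lysyl oxidase genes of the list, which encode cross-linking enzymes, were each called higher in Tg-RKIP. Lox was at 11.8, 11.8 and 12.1 TPM in Tg-RKIP, 2.07, 2.08 and 1.98 TPM in hearts labelled Tg-GRK2 and 1.75, 1.89 and 1.59 TPM in FVB, with log2 fold changes of 2.34 (SE 0.062, adjusted p = 7.26e-19) and 0.19 (SE 0.084, adjusted p = 0.115). Loxl1 gave 1.94 (SE 0.039) and 0.52 (SE 0.045), Loxl2 1.08 (SE 0.038) and 0.36 (SE 0.042), and Loxl3 2.02 (SE 0.073) and 0.067 (SE 0.097, adjusted p = 0.68). Loxl4, at 0.695, 0.505 and 0.372 TPM in FVB, gave 0.56 (SE 0.21, adjusted p = 0.0233) and 0.67 (SE 0.22, adjusted p = 0.0275), and each lost its call with a library left out (adjusted p up to 0.149 and 0.146). Among the hydroxylases, P4ha3, a prolyl 4-hydroxylase subunit, had the largest change in Tg-RKIP at 3.83 (SE 0.21, adjusted p = 3.22e-13), and P4ha1 rose by 0.69 (SE 0.026) and 0.24 (SE 0.028). The procollagen chaperone Serpinh1 rose in both transgenic groups, by 0.37 (SE 0.021) and 0.32 (SE 0.022). The difference between them was 0.05 (SE 0.021, adjusted p = 0.0368), which was 0.41 with scaling to library size only and turned to -0.12 after adjustment for transcript length. Pcolce, the enhancer of C-propeptide removal, and Adamts2, the N-proteinase, rose by 1.77 (SE 0.030) and 1.70 (SE 0.034) in Tg-RKIP and by 0.21 (SE 0.034) and 0.48 (SE 0.038) in the hearts labelled Tg-GRK2. The genes that were lower in Tg-RKIP were Adamts3, Colgalt2, Mia2 and Mia3, at -2.04 (SE 0.19), -0.45 (SE 0.075), -0.48 (SE 0.035) and -0.21 (SE 0.026), of which Mia3 turned to 0.16 with scaling to library size only, and in the hearts labelled Tg-GRK2 they were Fkbp10, P4hb and Tgm2, at -0.24 (SE 0.051), -0.093 (SE 0.021) and -0.19 (SE 0.019).

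Markers of several cell types were read beside the collagens, and against FVB 36.8% and 37.1% of all genes were called higher and lower in Tg-RKIP and 12.2% and 12.2% in the hearts labelled Tg-GRK2. Of 6 fibroblast markers, 6 were higher and 0 lower in Tg-RKIP and 4 higher and 0 lower in the hearts labelled Tg-GRK2, with summed levels of 1905 to 1916, 955 to 967 and 887 to 911 TPM in Tg-RKIP, labelled Tg-GRK2 and FVB. Activated fibroblast markers, also 6, were higher for 5 in Tg-RKIP and 1 in the hearts labelled Tg-GRK2 and lower for 0 in both, and summed to 553 to 566, 65.4 to 69.0 and 66.5 to 68.2 TPM. After adjustment for transcript length 5 were higher and 1 lower in Tg-RKIP, against 31.7% and 40.3% of all genes. The sum of the activated fibroblast markers in Tg-RKIP was 8.26 times the FVB mean in TPM and 5.53 times in TMM-normalised counts. This sum was thus raised with the collagens in Tg-RKIP, while in the hearts labelled Tg-GRK2 it overlapped with FVB. Of 6 macrophage markers 6 were higher and 0 lower in Tg-RKIP and 3 higher and 0 lower in the other group, at 369 to 377, 156 to 161 and 141 to 145 TPM. The 8 smooth muscle and pericyte markers were mixed, with 5 higher and 3 lower in Tg-RKIP and 1 higher and 4 lower in the hearts labelled Tg-GRK2. They summed to 901 to 922, 429 to 438 and 454 to 472 TPM, and the sum in Tg-RKIP was 1.97 times the FVB mean in TPM and 1.28 times in TMM-normalised counts. The 6 endothelial markers were also mixed, with 3 higher and 3 lower in Tg-RKIP and 1 higher and 2 lower in the hearts labelled Tg-GRK2. Their sum was 369 to 375, 265 to 272 and 259 to 265 TPM, and in Tg-RKIP it was 1.42 times the FVB mean in TPM but 0.904 of it in TMM-normalised counts, so that its direction turned with the measure.

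Markers of tissues other than heart muscle were read as well. Cartilage markers summed to 55.5 to 57.8, 2.38 to 4.03 and 3.42 to 4.19 TPM, with Col2a1 at 3 reads or fewer in every library outside Tg-RKIP and Matn1 at 3 reads or fewer in all 9. Bone markers summed to 30.0 to 34.7, 0.0712 to 0.285 and 0.124 to 0.195 TPM, with Sp7 at 0 reads in FVB. Col1a1, Col1a2 and Col5a2 are also expressed in bone. Airway markers summed to 84.8 to 90.3, 180.5 to 191 and 0 to 0.0739 TPM, with Scgb1a1 and Scgb3a2 at 0 reads in FVB and Sftpc at 2 reads or fewer in every library. Some markers near 0 in a group passed the filter on low counts through the groups where they are high. Matn1, Matn3, Snorc, Foxj1, Sftpb and Sftpc did not pass it. These 3 lists are therefore given by their summed levels. Adipocyte markers were higher for 6 of 6 in Tg-RKIP and 5 of 6 in the hearts labelled Tg-GRK2, at 87.8 to 91.2, 25.9 to 27.7 and 9.41 to 11.4 TPM, mesothelial markers for 5 of 5 and 3 of 5, at 70.0 to 73.3, 32.4 to 36.0 and 26.4 to 28.8 TPM, and Schwann cell markers for 4 of 5 and 2 of 5, at 29.1 to 29.9, 9.52 to 9.74 and 7.37 to 7.87 TPM, with none lower. Among all genes tested, 36.8% and 12.2% were higher. In Tg-RKIP the sum of the Schwann cell markers was 3.89 times the FVB mean in TPM and 2.31 times in TMM-normalised counts. In TMM-normalised counts the cartilage markers summed to 3640 to 3739 in Tg-RKIP and 151 to 160 in FVB. The bone markers summed to 835 to 901 and 6.97 to 10.7. Several markers of both lists were at 3 reads or fewer in FVB, so no exact fold is given. The part of these cell types in the collagen results was not tested.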

How the data were processed

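RNA of 9 hearts was sequenced as single reads of 50 bases from fragmented mRNA with random hexamer priming. The deposited tables gave a read count and a TPM value, a level per transcript length, for each of 127558 transcripts, made by the authors on genome build GRCm39, as the submitters' processing notes name it. The aligner and counter are not given in the sources used here. The deposited TPM were equal to those recomputed from the deposited counts and transcript lengths to within 5.5e-06. Columns of no labelled sample numbered 0.

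Transcript counts were added up for each of 41710 gene names. After edgeR's default expression filter, 15504 genes were fitted with its quasi-likelihood test (edgeR 4.0.16, R 4.3.3), TMM scaling and 1 mean per group over all 9 libraries, with Benjamini-Hochberg adjustment over all genes tested. The standard error is the log2 fold change over the square root of its F statistic. TPM, summed levels and ratios were compared with exact two-sided permutation tests. Log2 fold changes refer to counts unless TPM is named. Every member is named, and values in every library are given for tested members with at least 10 TPM in the mean of a group or a log2 fold change of at least 1 in either direction against FVB. The members, their classes and the lists of markers and of biosynthesis and receptor genes were chosen with earlier results of these data known. The scripts were tested on simulated data. Alternatives were DESeq2 1.42.0, its size factors, scaling to library size only, other filters, a replicate block, only the 2 groups compared, limma 3.58.1 on log2(TPM + 0.1) and log2(TPM + 1), a fold change of at least 1.5 as the null, the most abundant transcript and each library left out. A loess offset for transcript length (span 0.5) and the transcript with the most reads were added after the data had been seen. Upstream sequences came from RefSeq tables of GRCm38.p6.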

Additional observations from a re-analysis of the deposited data

How the results depend on the processing

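Counts of collagen genes called higher ranged from 20 to 28 in Tg-RKIP against FVB, from 3 to 19 in the hearts labelled Tg-GRK2 against FVB and from 17 to 26 between the transgenic groups, with the lowest of each from testing against a fold change of at least 1.5. Of all 15504 genes, 1975, 82 and 2033 were higher against that fold. With library size only they were 9710, 2094 and 9608, compared with 5709, 1895 and 5874 in the main fit. Of the members' log2 fold changes, 96 of 96 kept their side of the threshold and, where called, their direction with DESeq2, with its size factors in edgeR and without a filter, as did 95 of 95 with only the 2 groups compared, 93 of 93 with at least 1 CPM in 3 libraries and 858 with a library left out, where the other 3 were Col4a5 in the hearts labelled Tg-GRK2. Without a library the sign turned for uncalled values of Col4a3, Col4a6, Col20a1, Col22a1 and Col28a1 in the hearts labelled Tg-GRK2 and of Col26a1 in Tg-RKIP against FVB. Replicate numbers did not pair the libraries (correlations of deviations between -0.041 and 0.042), and with a replicate block the counts of higher and lower members were again 26 and 2, 19 and 0, and 23 and 4.

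The cause of the following changes was not tested. Scaling to library size only gave a median log2 fold change over all genes of 0.38 in Tg-RKIP against FVB. Between the transgenic groups it also gave 0.38. Every value under this scaling, here and above, is to be read against that median. The 2 members lower in Tg-RKIP against FVB, Col4a5 and Col25a1, became 0 with scaling to library size only, where Col25a1 was -0.43 (adjusted p = 0.116), and against a fold of 1.5, and 1 with the most abundant transcript or the length adjustment. They also became 0 with limma on log2(TPM + 0.1) or log2(TPM + 1), which was fitted for 27 of the 32 members and not for Col25a1, Col13a1, Col20a1, Col26a1 and Col28a1. Over all genes, 5751 of 15504 were lower in this comparison in the main fit and 2649 with library size only. Against a fold of 1.5 they were 1690, with the length adjustment 6252, and with the most abundant transcript 4530 of 15177. With limma on the same scales they were 1964 and 1960 of 13478. The 4 lower between the transgenic groups became 0 with library size only, with limma on either scale and against a fold of 1.5, 2 with the most abundant transcript and 1 with the length adjustment. Over all genes, 5677 of 15504 were lower there in the main fit and 2847 with library size only. Against a fold of 1.5 they were 1834, with the length adjustment 5990, and with the most abundant transcript 4580 of 15177. With limma on log2(TPM + 0.1) and log2(TPM + 1) they were 2296 and 2308 of 13478, with medians of 0.40 and 0.35. Against a fold of 1.5, 3 members were higher in the hearts labelled Tg-GRK2, and limma on either TPM scale called 1 lower there (Col6a5). Of all 13478 genes fitted with limma, 815 and 807 were lower there with log2(TPM + 0.1) and log2(TPM + 1). In Tg-RKIP against FVB, Col4a5 turned to 0.25 and Col6a6 to 0.32 with library size only, where the median over all genes was 0.38. They turned to 0.61 and 0.35 with log2(TPM + 0.1) and to 0.59 and 0.28 with log2(TPM + 1). With the length adjustment they turned to 0.047 and 0.23. The medians over all genes in these last settings were 0.43, 0.37 and -0.053. Col4a5 was 1.17 on the most abundant transcript but -1.06 (adjusted p = 6.22e-06) on the transcript with the most reads. Col15a1 was -0.20 on the transcript with the most reads. Between the transgenic groups, library size only gave 0.044 for Col15a1, 0.12 for Col4a5, 0.23 for Col5a3, 0.20 for Col6a3 and 0.028 for Col6a6. With log2(TPM + 0.1), Col15a1 was 0.62, Col4a5 0.50, Col6a3 1.32 and Col6a6 0.026, and with log2(TPM + 1) they were 0.62, 0.48, 1.24 and 0.022. The most abundant transcript gave 1.29 for Col15a1 and 1.40 for Col4a5, and -0.23 for Col4a5 in the hearts labelled Tg-GRK2 against FVB. Between the transgenic groups the transcript with the most reads gave -0.97 (adjusted p = 1.56e-07) for Col15a1 and -1.30 (adjusted p = 1.54e-06) for Col4a5. The length adjustment gave 0.22 for Col6a3 and 0.040 for Col6a6.

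The fold of summed collagen TPM was 3.75, 1.42 and 2.63 in the 3 comparisons, 4.04, 1.48 and 2.73 with the most abundant transcript, and 2.68 and 1.87 with TMM-normalised counts in Tg-RKIP against FVB and between the transgenic groups. The fold of the Col1a1 to Col3a1 ratio in TPM was 1.84, 1.00 and 1.84, and 1.92, 0.880 and 2.18 with the most abundant transcript or 1.90, 0.899 and 2.12 with TMM-normalised counts. With a library left out the fold was 0.976 to 1.03 in the hearts labelled Tg-GRK2 against FVB, so that its direction is not settled, and 1.78 to 1.89 between the transgenic groups. Members with few reads, such as Col26a1 and Col13a1, had standard errors of 0.44 and 0.24 in Tg-RKIP against FVB, and 5 members were too low to test.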

Other observations

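Receptors for collagen were also read, from a list of 10 genes of which 9 were tested. In Tg-RKIP against FVB 5 were higher and 2 lower, where 36.8% and 37.1% of all genes were, and in the hearts labelled Tg-GRK2 4 were higher and 1 lower, where 12.2% and 12.2% were. After adjustment for transcript length the counts were 5 and 0 in Tg-RKIP and 3 and 1 in the hearts labelled Tg-GRK2. The shares of all genes were then 31.7% and 40.3%, and 9.43% and 13.6%. Itga11, the integrin subunit that binds fibrillar collagen on fibroblasts, rose by 1.37 (SE 0.093, adjusted p = 1.39e-11) and 0.42 (SE 0.11, adjusted p = 0.00512). Itga10, the collagen-binding subunit typical of chondrocytes, rose by 1.78 (SE 0.22, adjusted p = 2.77e-07) in Tg-RKIP and gave -0.15 (SE 0.29, adjusted p = 0.769) in the hearts labelled Tg-GRK2. Mrc2, which takes up collagen for degradation, rose in both groups, by 0.88 (SE 0.043) and 0.26 (SE 0.048). Itga1, a subunit for basement membrane collagen, gave -0.40 (SE 0.033, adjusted p = 3.83e-10) in Tg-RKIP by counts, but -0.043 (adjusted p = 0.239) after adjustment for transcript length and -0.029 (adjusted p = 0.434) with scaling to library size only. Ddr1, a discoidin domain receptor, gave 0.36 (SE 0.041, adjusted p = 8.57e-08) in Tg-RKIP and -0.017 (SE 0.043, adjusted p = 0.83) in the hearts labelled Tg-GRK2, whereas Ddr2 gave -0.22 (SE 0.036, adjusted p = 1.08e-05) and 0.33 (SE 0.035, adjusted p = 3.56e-07), the former of which turned to 0.15 with scaling to library size only and to 0.049 (adjusted p = 0.214) after the length adjustment. Between the transgenic groups Ddr2 was lower in Tg-RKIP, at -0.55 (SE 0.035, adjusted p = 3.35e-12). Lair1, an inhibitory collagen receptor of leukocytes, was lower in the hearts labelled Tg-GRK2, at -0.38 (SE 0.13, adjusted p = 0.0398). Itgb1, the common beta subunit, rose by 0.10 (SE 0.017, adjusted p = 2.93e-05) and 0.05 (SE 0.017, adjusted p = 0.034), the latter not called after the length adjustment (adjusted p = 0.374), and Itga2 did not pass the threshold, at 0.27 (SE 0.29, adjusted p = 0.412) and 0.62 (SE 0.29, adjusted p = 0.129).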
